A study of Mus musculus with 23 samples.

Results

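The mitochondrial ribosome is built from proteins that are encoded in the nucleus, and 78 mouse genes of this kind were followed here by genotype and by week in sorted lung tumor cells. The genes were chosen by name: all symbols that begin with Mrpl or Mrps, continue with a number and optionally end in a, b or c were taken, provided that their mean normalized count was at least 10. All 78 such genes passed in both deposited tables, which list 35455 and 35454 genes, of which 17558 and 17424 reached the same level. By symbol, 49 of the 78 encode proteins of the large subunit (Mrpl) and 29 proteins of the small subunit (Mrps), and they lie on 17 chromosomes.

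RNA-sequencing was performed on 23 libraries, each from tdTomato+ cells sorted from the lungs of mice whose tumors had been initiated with an adenovirus that expresses CRE recombinase under the surfactant protein C promoter (Ad5-Sftpc-CRE), which acts mainly in alveolar type 2 (AT2) pneumocytes, the surfactant-making cells of the lung. All mice carried the BrafCAT allele, so that CRE switched on both BRAFV600E and the red fluorophore tdTomato in the same cells. The first table holds 6 BRAFV600E libraries (1 at 2 weeks post-initiation (p.i.), 3 at 6 weeks and 2 at 12 weeks) and 8 libraries of BRAFV600E/PI3KαH1047R tumors (2, 4 and 2 at the same weeks), which also carried a CRE-activated mutant Pik3ca allele. The second table holds 9 libraries at 12 weeks p.i., from mice with 1 floxed and 1 intact Ppargc1a allele (BRAFV600E/PGC1αHet, n = 5) and from mice with both alleles floxed (BRAFV600E/PGC1αNull, n = 4), so the comparison group of that table had also lost 1 copy. The mice were of mixed strain background and 3 to 4 months old, and those studied at 12 weeks had received less virus than the mice studied at 2 and 6 weeks, so that virus dose and week cannot be told apart there.

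Mitochondria keep a small genome whose protein-coding mRNAs, 13 in mammals, all encode subunits of the oxidative phosphorylation complexes. These mRNAs are translated by the mitochondrial ribosome inside the organelle, and its proteins are made in the cytosol and imported, so each ribosome joins ribosomal RNA of the mitochondrial genome with proteins of the nuclear genome. The small subunit binds and decodes the mRNA and the large subunit forms the peptide bond and feeds the nascent chain to the inner membrane. Transcription factors such as NRF1, GABP (an ETS family factor) and YY1 are known regulators of nuclear genes for mitochondrial proteins, and PGC1α, encoded by Ppargc1a, is a coactivator of mitochondrial biogenesis that works through such factors and through ERRα. AT2 cells spend much energy on lipid and surfactant synthesis and are rich in mitochondria.

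Promoter sequences from RefSeq (GRCm38.p6, 250 bases before to 50 after each start site) were matched by symbol to 69 of the 78 genes, giving 75 promoters, and 5 short motifs were counted on both strands. An ETS motif (CCGGAAG) lay in 34.7% of the 75 promoters and in 8.86% of all 32851 promoters, an NRF1 motif (GCGCATGC) in 10.7% and 2.71%, and a YY1 motif (AAGATGGCG) in 10.7% and 1.40%. An E-box (CACGTG) was found in 9.33% of the members' promoters and in 7.15% of all, but counted by gene in 7.25% of members and in 8.09% of all genes, since 3 overlapping promoters of Mrpl2 hold the same E-box, and the ERR motif (TCAAGGTCA) in 0 of the 75 and in 0.423% of all. The members' promoters were also richer in G and C (median 58.7%, against 52.7% for all promoters), and the part of base composition in the shares was not tested. At least 1 of the 5 motifs was present in the promoters of 38 of the 69 genes, and a match describes letters in a window and is not a site of binding. The 100 bases before the start site are shown for 4 genes that recur below, 5′ to 3′ on the strand of the gene, with motif matches in capitals. All 4 hold a motif, so members without a motif are not shown. They run from repeated NRF1 motifs through an ETS motif with or without an NRF1 motif to an E-box followed by a reverse YY1 motif. In the first block of Mrpl32 the NRF1 motifs overlap their own reverse complement. A YY1 motif of Mrps27 begins after the start site (position 14), outside the stretch shown.
Mrpl32 (chr13:14613038-14613137, minus strand): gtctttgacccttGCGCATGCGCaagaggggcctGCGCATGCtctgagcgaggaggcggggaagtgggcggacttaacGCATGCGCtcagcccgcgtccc
Mrpl22 (chr11:58171564-58171663, plus strand): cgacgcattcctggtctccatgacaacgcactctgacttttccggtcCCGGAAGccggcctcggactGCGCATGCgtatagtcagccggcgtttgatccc
Mrps27 (chr13:99344686-99344785, plus strand): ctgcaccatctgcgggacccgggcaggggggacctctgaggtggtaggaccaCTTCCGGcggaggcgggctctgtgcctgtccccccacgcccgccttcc
Mrpl36 (chr13:73330909-73331008, plus strand): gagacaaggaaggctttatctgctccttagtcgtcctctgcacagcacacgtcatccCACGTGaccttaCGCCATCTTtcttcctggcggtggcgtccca

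The values are counts that the authors had scaled between libraries, separately in each table, and their sum per library ran from 16433800 to 20287300 in the first table and from 7115750 to 9159570 in the second, so levels of the tables are not compared as differences. The number of reads per library is not known from them. Each gene below was tested with limma on log2(normalized count + 1) over all genes of its table, and a call needed an adjusted p under 0.05. AT2 markers were present in all groups, with a summed level of 595526 or more in the 6 BRAFV600E libraries, but the 2 BRAFV600E/PI3KαH1047R libraries at 2 weeks reached only 89137 and 186181 and replicate 1 of that genotype at 6 weeks 335069. With weeks pooled 1 of the 14 AT2 markers was higher in BRAFV600E/PI3KαH1047R (median -0.88). The 12 endothelial markers fixed for the analysis were, on fitted log2 fold changes, all higher in BRAFV600E/PI3KαH1047R (median 0.90, summed level 14877 to 94955 against 6725 to 47265) and all higher in BRAFV600E/PGC1αNull (median 1.66, 1742 to 2389 against 649 to 1082), and no endothelial marker was at 0 in a whole group. Markers of other cell types moved with the genotypes as well. In BRAFV600E/PGC1αNull the summed level was 415 to 1599 for fibroblast markers, as against 127 to 377 in Het (8 of 8 tested higher, median 1.17), 4704 to 20083 against 1856 to 3726 for club cell markers (6 of 6, 1.97), 1739 to 12066 against 501 to 3909 for macrophage markers (9 of 11, 1.13) and 409 to 806 against 196 to 471 for lymphocyte markers (8 of 9, 0.98). In BRAFV600E/PI3KαH1047R with weeks pooled, 11 of 11 macrophage markers (median 0.90), 7 of 9 fibroblast markers (0.75) and 10 of 10 alveolar type 1 markers (0.31) were higher, as were 3 of 6 club cell markers (-0.01) and 1 of 10 lymphocyte markers (-0.46). Sorted populations were sequenced in bulk, so fewer cells of a type and less RNA per cell cannot be told apart, and the part of other cell types in the results below was not tested. In the BRAFV600E/PI3KαH1047R pair at 12 weeks, the Y-linked gene Eif2s3y read 30.2 in the library labelled male and 1309 in the library labelled female, which goes against both sex labels. At 2 weeks the single BRAFV600E library was labelled female and both BRAFV600E/PI3KαH1047R libraries male, so sex and genotype cannot be told apart there.

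Ppargc1a itself, the targeted gene of the second table, read between 75.8 and 561 normalized counts in the 5 BRAFV600E/PGC1αHet libraries (75.8, 170, 155, 200 and 561) and 72.7, 38.0, 51.6 and 124 in BRAFV600E/PGC1αNull. The Null values were on the low side but the groups overlapped, and a gene-level count also holds any transcript that the floxed allele still gives. The log2 fold change was -1.51 (95% interval -2.60 to -0.42), which passed an exact permutation test of that gene alone (two-sided p = 0.0397, n = 5 and 4) and not the adjustment over all genes (limma, adjusted p = 0.978). In the first table Ppargc1a ran from 350 to 1088 (median 711) in the 6 BRAFV600E libraries and from 51.9 to 415 (median 222) in the 8 BRAFV600E/PI3KαH1047R libraries, a log2 fold change of -1.92 (-2.89 to -0.96, limma adjusted p = 0.225, exact permutation p = 0.0027).

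The levels of the large and of the small subunit genes overlapped between genotypes at 6 and 12 weeks, while at 2 weeks the single BRAFV600E library lay below both BRAFV600E/PI3KαH1047R libraries for both subunits. The subunit level, taken as the mean of log2(normalized count + 1) over the genes of a subunit in 1 library, is a description, since its genes are not replicates. For the large subunit the value at 2 weeks was 7.16 in the single BRAFV600E library, and it was 7.50 ± 0.29 (SD, n = 3) for 6 weeks and 7.54 ± 0.00 (n = 2) for 12 weeks. In BRAFV600E/PI3KαH1047R tumors it was 7.32 ± 0.04 (n = 2), 7.38 ± 0.14 (n = 4) and 7.48 ± 0.11 (n = 2) at the same weeks. Over all weeks the 2 genotypes overlapped, with all 6 BRAFV600E libraries between 7.16 and 7.83 and all 8 BRAFV600E/PI3KαH1047R libraries between 7.21 and 7.56.

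For the small subunit the level was 6.70, 6.99 ± 0.08 and 6.95 ± 0.07 in BRAFV600E tumors at 2, 6 and 12 weeks and 7.05 ± 0.09, 6.90 ± 0.17 and 6.83 ± 0.24 in BRAFV600E/PI3KαH1047R tumors. Over all weeks the genotypes overlapped here too (6.70 to 7.04 and 6.66 to 7.11), although at 2 weeks 6.70 stood against 6.99 and 7.11. In the second table the large subunit stood at 6.88 ± 0.11 in BRAFV600E/PGC1αHet (n = 5) and at 6.82 ± 0.22 in BRAFV600E/PGC1αNull (n = 4), and the small subunit at 6.36 ± 0.21 and 6.32 ± 0.34. The large subunit exceeded the small in all 23 libraries, by 0.18 to 0.80 in the first table and by 0.32 to 0.68 in the second. Together the 78 genes held 0.0885 to 0.121% of all normalized counts in the first table and 0.118 to 0.152% in the second.

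**Figure D1:**
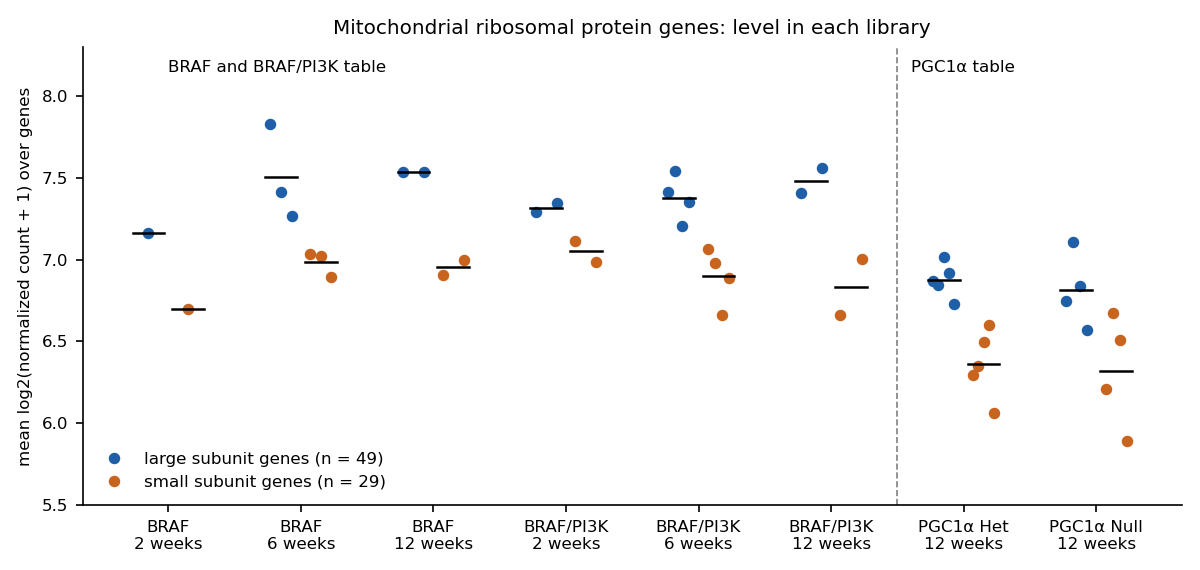
Subunit level, the mean log2(normalized count + 1) over the 49 large and the 29 small subunit genes in each of the 23 libraries, by group, each point being 1 library and each short line a group mean, on an axis that does not start at 0. The 6 BRAFV600E libraries span 7.16 to 7.83 for the large subunit and the 8 BRAFV600E/PI3KαH1047R libraries 7.21 to 7.56, and at 2 weeks the BRAFV600E library lies below both BRAFV600E/PI3KαH1047R libraries for both subunits.

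Levels of single genes, compared per kilobase of their median coding transcript, spread widely within each subunit. In the first table the median was 131 normalized counts per kilobase for large subunit genes (range 32.5 to 1164) and 115 for small subunit genes (14.3 to 567). The highest were Mrpl33 (1164), Mrpl4 (915) and Mrpl17 (833), and the lowest was Mrps16 (14.3), a small subunit protein. In the second table Mrps16 was again the lowest (12.1), while on the mean of its libraries Mrpl48 was the highest (1357) and Mrpl13 followed at 515. Mrpl48 was the highest in 6 of the 9 libraries and another member in the other 3, and its level moved with library composition (below). Over the 78 genes the log2 levels of the 2 tables correlated with r = 0.84, a description across genes that share the libraries.

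Spread between libraries of one group was somewhat below that of other genes. The median SD of log2 values within groups was 0.549 for members and 0.598 for all genes in the first table, and 0.445 and 0.566 in the second. Against genes of a like level, 54 and 60 of the 78 members lay below the 50th percentile of SD. The steadiest in the first table were Mrpl39 (SD 0.18), Mrpl30 (0.23) and Mrpl24 (0.24), and in the second Mrpl24 (0.18), Mrpl13 (0.20) and Mrpl35 (0.20). Mrpl24 ran from 446 to 755 over the 14 libraries of the first table and from 336 to 455 over the 9 of the second, so Mrpl24 was among the steadiest genes in both.

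The most variable in the first table was Mrpl54 (SD 1.38), followed by Mrpl28 (1.12), Mrpl23 (1.10) and Mrps23 (1.08). In the second table they were Mrps6 (1.25) and Mrpl48 (1.12). Members moved together only weakly from library to library. Over all 3003 pairs of members the median correlation of the deviations from the group means was 0.045 in the first table and 0.24 in the second, as against 0.16 and 0.47 between nuclear oxidative phosphorylation genes, 0.48 and 0.80 between cytosolic ribosomal protein genes and 0.75 and 0.78 between the 13 mRNAs of the mitochondrial genome. These are descriptions over 13 and 9 libraries that share a table's scaling. The lists differ in level. In the first table the 13 mRNAs held 2.95 to 11.5% of all normalized counts and the 78 members 0.0885 to 0.121%. Correlations were not compared between genes of a like level, so the part of level in them was not tested.

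The question asked of PI3Kα activation was which genes differ between BRAFV600E and BRAFV600E/PI3KαH1047R tumors, with weeks pooled as in the study. No mitochondrial ribosomal protein gene passed the test. Of the 78 members 0 had an adjusted p under 0.05 with limma (0.0228% of all 17558 genes, or 4 genes, did), and 2 (2.56%) had an unadjusted p under 0.05, where all genes gave 6.83%. The smallest adjusted p was 0.634. Among large subunit genes 17 of 49 were higher in BRAFV600E/PI3KαH1047R (median log2 fold change -0.12), among small subunit genes 12 of 29 (median -0.03), and among all genes 51.8% (median 0.02). The interval of the log2 fold change lay within -1 and 1 for 50 of the 78 genes, and its median half-width was 0.659.

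Mrps27, a small subunit protein with pentatricopeptide repeats, lay lowest in the order of fold changes (Mrps27, 13:99344786 to 99415562, GRCm38). Its normalized count was 178 in the BRAFV600E library at 2 weeks, 95.6, 50.7 and 32.4 at 6 weeks, and 73.9 and 154.5 at 12 weeks. In BRAFV600E/PI3KαH1047R tumors it read 12.2 and 35.6 at 2 weeks, 44.9, 47.2, 65.2 and 20.9 at 6 weeks, and 44.7 and 51.8 at 12 weeks. The genotypes overlapped at 6 weeks and did not at 2 and 12 weeks, where 2 or fewer libraries stood on each side. The log2 fold change was -1.17 (-2.11 to -0.23), with an unadjusted p of 0.0184 in limma, an adjusted p of 0.634 and an exact permutation p of 0.0243. By week it was -3.02 at 2 weeks, -0.38 at 6 weeks (0.028 without BRAFV600E replicate 1) and -1.13 at 12 weeks, and the pooled value was -0.70 without the 2-week libraries and -0.75 with sex as a term, the labels of sex being used as given, also for the 12-week pair that goes against them. Of its 31-base stretches, 18.9% also occur in 6430562O15Rik, so that part of its count could be shared.

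Mrpl14, a large subunit protein, came next among the lower genes. It ran from 20.6 to 151 (median 46.9) in BRAFV600E and from 10.8 to 71.3 (median 30.7) in BRAFV600E/PI3KαH1047R, with wide overlap, and its log2 fold change was -0.82 (-1.78 to 0.14, limma adjusted p = 0.742, exact permutation p = 0.0916). Mrpl47 ran from 182 to 239 in the 6 BRAFV600E libraries and from 44.9 to 237 in the 8 BRAFV600E/PI3KαH1047R libraries, a log2 fold change of -0.59 (adjusted p = 0.750). The BRAFV600E libraries were tight and the spread lay in BRAFV600E/PI3KαH1047R. The other genes at the low end were Mrps5, at the entry of the mRNA channel (-0.56), Mrpl38 (-0.46) and Mrps25 (-0.46). The direction of Mrpl38 turned to 0.088 with sex as a term and to 0.017 without the 2-week libraries.

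At the high end stood Mrps23, whose log2 fold change of 0.90 (-0.36 to 2.16, limma adjusted p = 0.773) became 0.46 without 1 library. It read 844 and 111 in BRAFV600E/PI3KαH1047R at 2 weeks (the library with 844 being the one left out), 139, 87.2, 62.7 and 26.9 at 6 weeks and 43.7 and 121 at 12 weeks, as against 29.7 to 86.9 in the 6 BRAFV600E libraries. The next highest value of this gene in the table after 844 was 139. Mrpl54 followed at 0.73 (-0.99 to 2.46) with values from 0 to 54.6 in BRAFV600E and from 6.25 to 29.1 in BRAFV600E/PI3KαH1047R, and with 1 library listed at 0 that number depends on the pseudocount. Mrps6 (0.62), Mrpl41 (0.58), Mrpl18 (0.55) and Mrps34 (0.47) completed the list, with adjusted p values from 0.771 to 0.878, and Mrps6 turned to -0.22 without the 2-week libraries.

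Mrps31, a small subunit member that was singled out after its value was seen, had the narrowest difference with an unadjusted p under 0.05. Its BRAFV600E libraries lay between 301 and 636 (median 371) and its BRAFV600E/PI3KαH1047R libraries between 468 and 589 (median 525), all inside the BRAFV600E range. The log2 fold change was 0.41 (0.03 to 0.80, limma unadjusted p = 0.0365, adjusted p = 0.692).

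**Figure D2:**
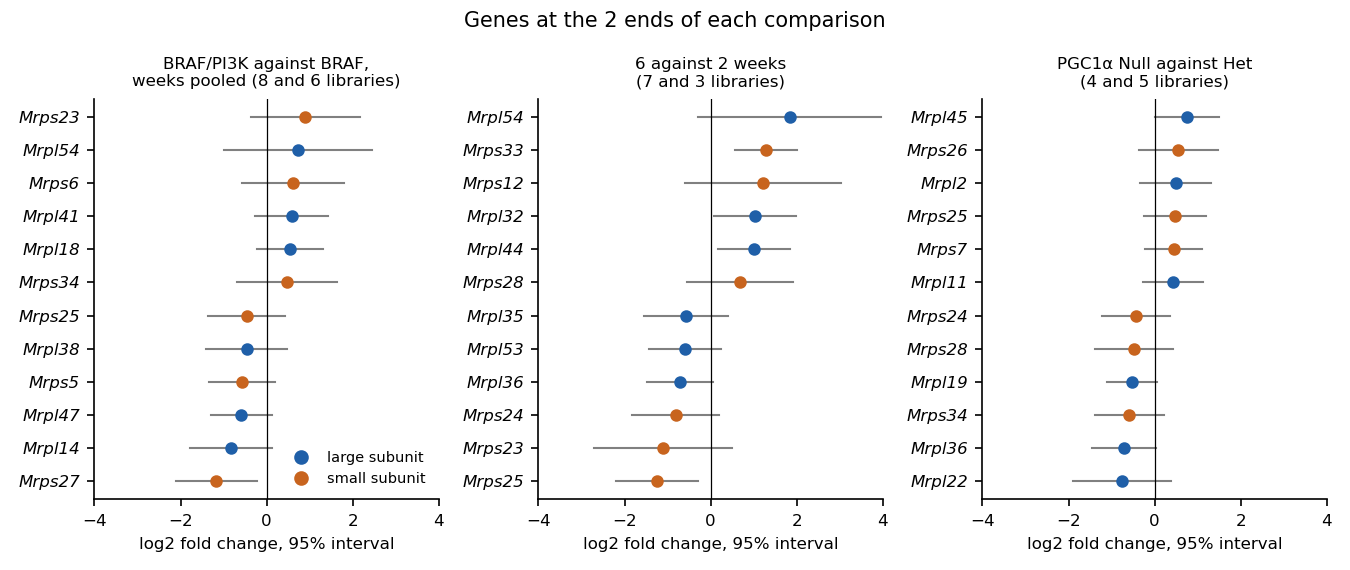
Log2 fold changes with 95% intervals (limma) of the members at each end of the order, by comparison. Mrps27 is the lowest with weeks pooled at -1.17 (-2.11 to -0.23), and no interval shown belongs to a gene with an adjusted p under 0.05.

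Genotypes were next compared at each week, with 1 estimate of the spread over all 14 libraries. These comparisons and the pooled one use the same libraries, so they are not independent of each other. At 2 weeks 0 of the 78 genes were called (0.0171% of all genes were), and 9 (11.5%) had an unadjusted p under 0.05 in limma, as against 13.5% of all genes. This comparison sets 2 libraries against 1, the lone BRAFV600E library being assumed to vary like the other groups, and the median half-width of an interval was 1.47, so that only 1 of the 78 intervals lay within -1 and 1. The medians were 0.06 (large, 27 of 49 higher) and 0.16 (small, 16 of 29 higher). The lone BRAFV600E library also held 11.5% of its normalized counts in mRNAs of the mitochondrial genome. In the other 13 libraries of the table they held 2.95 to 6.80%. The part of this difference in the comparison was not tested.

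Mrps6, a small subunit protein, had the lowest p at 2 weeks. It read 9.28 in the BRAFV600E library and 208.5 and 105.9 in BRAFV600E/PI3KαH1047R (log2 fold change 3.86, 1.91 to 5.82, limma adjusted p = 0.111). At 6 weeks the same gene read 45.5, 36.1 and 26.5 in BRAFV600E and 64.2, 48.9, 28.4 and 26.2 in BRAFV600E/PI3KαH1047R, and at 12 weeks 69.4 and 58.0 against 17.4 and 73.8, with overlap at both. The other members with an unadjusted p under 0.05 at 2 weeks were Mrps27 (-3.02, adjusted p = 0.18), Mrpl37 (1.72, 0.206), Mrps23 (3.32, 0.247), Mrps14 (1.18, 0.301), Mrpl41 (2.15, 0.316) and Mrpl38 (-2.10, 0.348). Mrps12, the decoding-centre protein, and Mrpl54 are listed at 0 in the BRAFV600E library, with 9.60 and 12.5 and with 6.25 and 29.1 in BRAFV600E/PI3KαH1047R, so no fold is given for them. The endothelial markers moved with this comparison, all 12 higher with a median log2 fold change of 2.94, as did the 14 AT2 markers (0 higher, median -2.27). So did fibroblast markers (9 of 9 higher, median 1.11, summed level 24997 to 35004 against 11432) and macrophage markers (11 of 11, 2.18, 3097 to 12913 against 1566). Alveolar type 1 markers (8 of 10, 0.59) and club cell markers (4 of 6, 0.92) moved as well. Summed levels were also higher for ciliated (1959 to 2370 against 1055), lymphocyte (811 to 1018 against 551) and neutrophil markers (282 to 339 against 208).

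At 6 weeks, with 3 and 4 libraries, 0 members were called (0.0228% of all genes) and 0 had an unadjusted p under 0.05, where all genes gave 4.24%. The medians were -0.11 (large, 19 of 49 higher) and -0.14 (small, 13 of 29 higher), and without BRAFV600E replicate 1 the large subunit median turned to 0.025 (27 of 49 higher) and the small to 0.0098. BRAFV600E/PI3KαH1047R replicate 1 stood apart in its markers, with AT2 at 335069 (670249 to 920267 in the other 3), endothelial at 94955 (18396 to 25539) and fibroblast at 24639 (7785 to 8949), and without it the medians were -0.14 and -0.11. Mrpl11, which lies in the GTPase-associated region of the large subunit, did not overlap between the genotypes at this week. It read 173, 125 and 228 in BRAFV600E and 85.8, 116, 97.7 and 82.8 in BRAFV600E/PI3KαH1047R (log2 fold change -0.84, -1.69 to 0.01, limma adjusted p = 1). The exact permutation test gave 0.0286, the smallest p that 3 libraries against 4 allow. At 2 weeks the order was the other way, 87.4 against 258 and 115, and at 12 weeks the values overlapped (126 and 103 against 168 and 89.2).

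At 12 weeks, with 2 libraries on each side, 0 members were called (0.0114% of all genes) and 3 (3.85%) had an unadjusted p under 0.05, near the 3.76% of all genes. Mrps5 read 738 and 632 in BRAFV600E and 159 and 295 in BRAFV600E/PI3KαH1047R (log2 fold change -1.65, unadjusted p = 0.0168, limma adjusted p = 1). Mrpl16 (1.14) and Mrpl27 (1.00) were the other members, with higher values in BRAFV600E/PI3KαH1047R. The medians were -0.01 (large) and -0.06 (small). Over the 3 weeks, 10 of the 78 genes had a higher fitted value in BRAFV600E/PI3KαH1047R each time and 12 a lower one each time, so 71.8% changed sign between weeks, near the 70.4% of all genes.

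**Figure D3:**
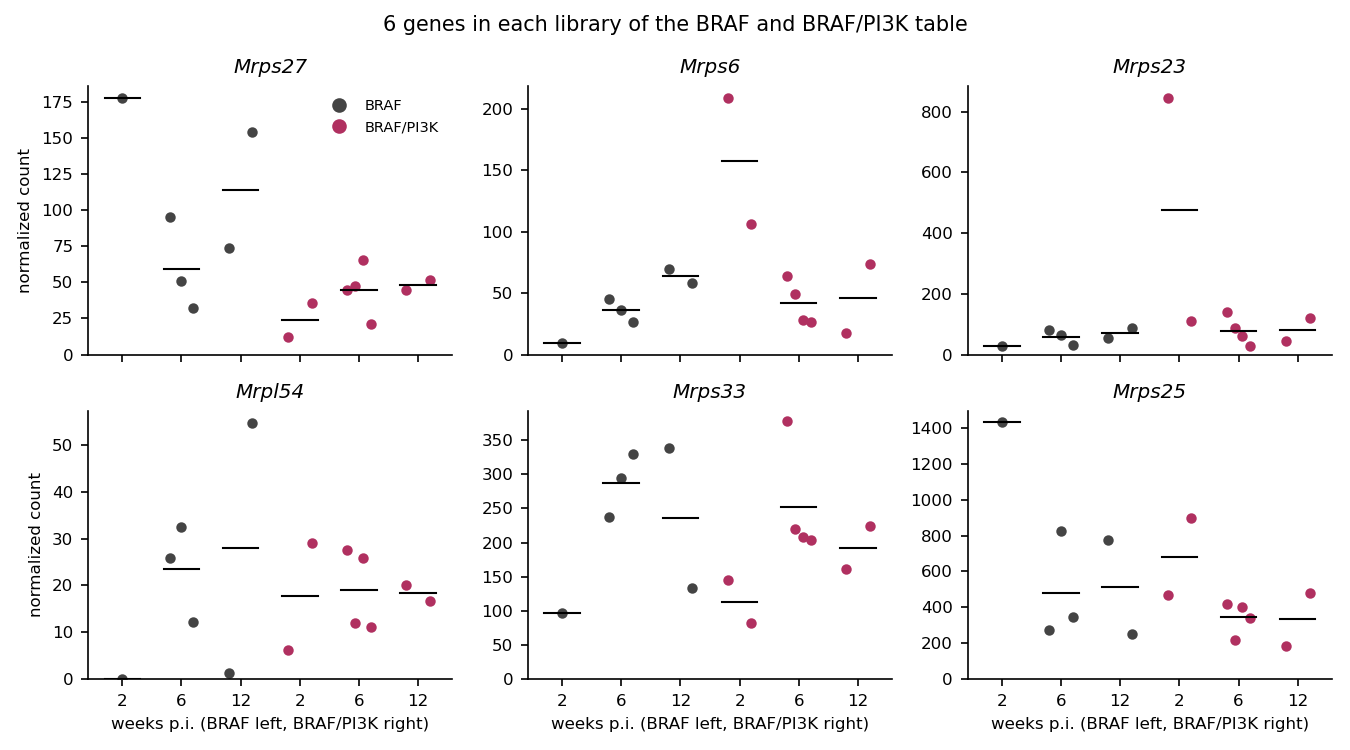
Normalized counts (linear axes that start at 0) of Mrps27, Mrps6, Mrps23, Mrpl54, Mrps33 and Mrps25 in each library of the first table, by genotype and week (p.i.), each point being 1 library and each bar a group mean. Mrps6 and Mrps27 part the genotypes at 2 weeks, where 1 BRAFV600E library stands against 2, and overlap at 6 weeks.

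Whether the genotype difference itself changed with week was tested as an interaction. Between 2 and 6 weeks 0 members were called (0% of all genes) and 8 (10.3%) had an unadjusted p under 0.05, as against 8.95% of all genes, with Mrps6 the lowest (-3.71, limma adjusted p = 0.382). Mrps6 was thus the lowest in p, and not in log2 fold change. The medians were -0.17 (large) and -0.28 (small), and all 8 members use the single BRAFV600E library at 2 weeks. Between 6 and 12 weeks 0 members were called (0% of all genes) and 2 (2.56%) had an unadjusted p under 0.05, near the 2.87% of all genes. These were Mrpl27 (1.66) and Mrps5 (-1.84), and the medians were 0.09 and 0.06.

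The week comparisons, with genotype as a term, asked which genes differ with tumor age. From 2 to 6 weeks 0 of the 78 genes were called (0.0513% of all genes, or 9 genes, were) and 5 (6.41%) had an unadjusted p under 0.05, below the 11.9% of all genes. Large subunit genes had a median log2 fold change of 0.18 with 32 of 49 higher at 6 weeks, small subunit genes -0.01 with 13 of 29 higher, and all genes 0.02. Leaving out 1 library in turn gave a large subunit median between 0.019 and 0.25. Only 3 libraries stand at 2 weeks, and the interval lay within -1 and 1 for 22 of the 78 genes. The 14 AT2 markers were all higher at 6 weeks (median 1.62), as were 5 of 6 club cell markers (1.81) and 8 of 10 lymphocyte markers (0.90), while 1 of 10 alveolar type 1 markers (-1.04) and 1 of 9 fibroblast markers (-0.91) were higher. Endothelial markers showed a median of -0.03 (5 of 12 higher), with a summed level that went from 8135 to 11697 or more in BRAFV600E and from 66038 and 66969 to between 18396 and 94955 in BRAFV600E/PI3KαH1047R. The part of these cell types in the comparison was not tested.

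Mrps33, a small subunit protein, had the lowest p of any member in this comparison. It read 97.5 (BRAFV600E), 145 and 82.0 (BRAFV600E/PI3KαH1047R) at 2 weeks. At 6 weeks it read 238, 294 and 329 in BRAFV600E and 379, 220, 208 and 204 in BRAFV600E/PI3KαH1047R, so the weeks did not overlap in either genotype. At 12 weeks it ran from 134 to 338, which overlaps both. The log2 fold change from 2 to 6 weeks was 1.29 (0.57 to 2.00, limma unadjusted p = 0.00171, adjusted p = 0.179).

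Mrpl44, a large subunit protein with a ribonuclease III-like fold, likewise did not overlap between the weeks. It read 46.8, 41.0 and 37.4 at 2 weeks and 55.3 to 148 (median 88.7) at 6 weeks (log2 fold change 1.01, 0.18 to 1.84, limma adjusted p = 0.326). Mrpl32, whose promoter holds the repeated NRF1 motifs shown above, read 491, 678 and 128 at 2 weeks and 342 to 1022 (median 731) at 6 weeks, with overlap (1.03, 0.08 to 1.98, limma adjusted p = 0.382). Mrpl13, a large subunit member singled out after its value was seen, had a log2 fold change of 0.68 (adjusted p = 0.355).

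In the other direction Mrps25 read 1434, 467 and 896 at 2 weeks and 215 to 823 (median 345) at 6 weeks, with overlap (log2 fold change -1.24, -2.20 to -0.28, limma adjusted p = 0.309). Of its 31-base stretches, 68.9% also occur in Nr2c2, so its count could hold reads of that gene. Mrps23 (-1.10), Mrps24 (-0.81), Mrpl36 (-0.71), Mrpl53 (-0.60) and Mrpl35 (-0.57) were the other genes at the low end, with adjusted p values from 0.459 to 0.680. Mrps23 turned to 0.067 without the BRAFV600E/PI3KαH1047R library that reads 844 at 2 weeks. Mrpl54 (1.84) and Mrps12 (1.22) at the high end rest on a library listed at 0, without which Mrps12 turned to -0.18, and Mrps28 stood at 0.69 (adjusted p = 0.692).

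From 6 to 12 weeks 0 members were called (0% of all genes) and 1 (1.28%) had an unadjusted p under 0.05, as against 5.31% of all genes. That gene was Mrpl37, a large subunit protein, which read 167 to 355 (median 303) at 6 weeks and 403, 427, 475 and 534 at 12 weeks, with no overlap (log2 fold change 0.73, 0.04 to 1.42, limma adjusted p = 0.901). The medians were -0.00 for the large and -0.07 for the small subunit. The interval lay within -1 and 1 for 40 of the 78 genes. With 1 library left out in turn, the medians ran from -0.0037 to 0.15 (large) and from -0.13 to 0.048 (small). Summed macrophage markers were 2265 to 5190 at 6 weeks and 7239 to 7323 at 12 weeks in BRAFV600E. In BRAFV600E/PI3KαH1047R they were 3317 to 8085 and 7790 to 30294. Alveolar type 1 markers were 52796 to 110237 and 38388 to 73735 in BRAFV600E, with overlap. The part of cell types in this comparison was not tested.

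**Figure D4:**
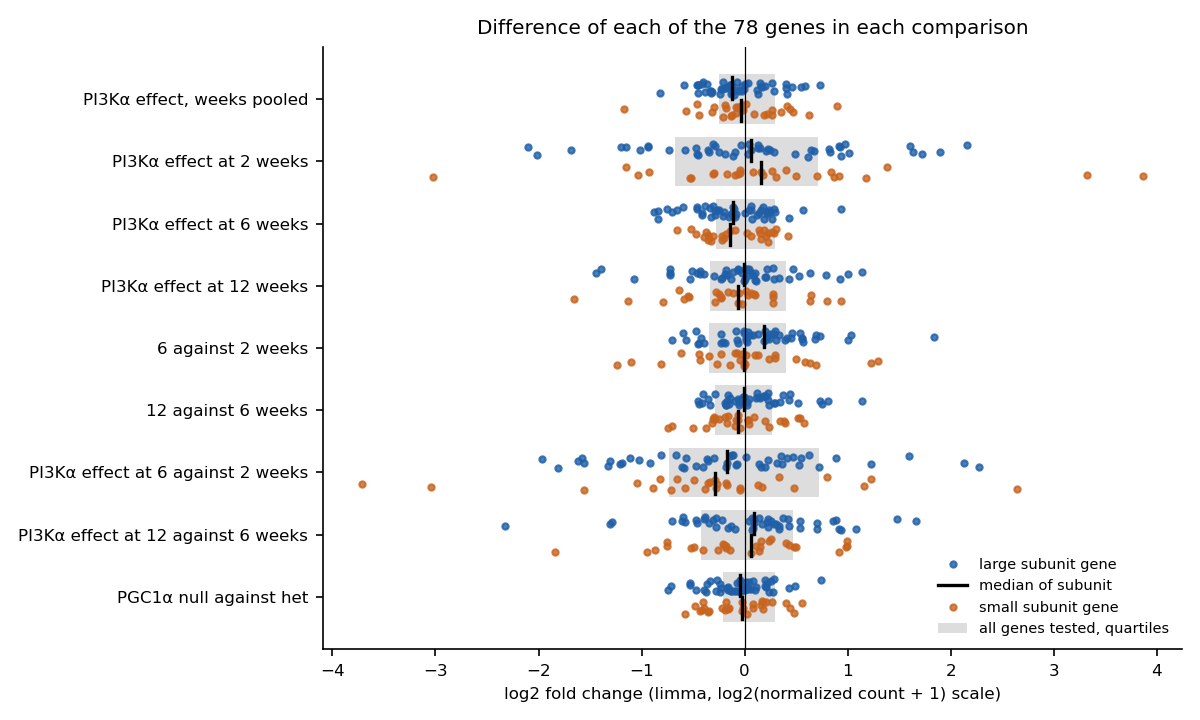
Log2 fold changes of the 49 large and the 29 small subunit genes in each of the 9 comparisons, each point being 1 gene, each short line the median of a subunit and each grey band the quartiles of all genes tested. Points spread widest where the single BRAFV600E library at 2 weeks enters, and Mrpl54 and Mrps12, listed at 0 in that library, are left out of the 2-week genotype difference and of its change to 6 weeks.

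The comparison of BRAFV600E/PGC1αNull with BRAFV600E/PGC1αHet tumors asked which genes depend on PGC1α at 12 weeks. No mitochondrial ribosomal protein gene passed the test, and 0 of all 17424 genes did (0%). With limma, 1 of the 78 (1.28%) had an unadjusted p under 0.05, as against 3.83% of all genes, and the smallest adjusted p was 0.998. The medians were close to 0, with -0.05 for the large subunit (21 of 49 higher in Null), -0.02 for the small subunit (13 of 29) and 0.01 for all genes. The interval lay within -1 and 1 for 46 of the 78 genes and its median half-width was 0.745, and 0 of the 78 differed by more than 1 on the log2 scale.

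Mrpl45, the protein that anchors the large subunit to the inner membrane, was the gene with the lowest p. It read 138, 73.6, 71.1, 42.7 and 111 in Het and 135, 119, 126 and 169 in Null (log2 fold change 0.75, 0.00 to 1.49, limma adjusted p = 0.998, exact permutation p = 0.0794). The Null libraries lay at the upper end with overlap by 1 Het library. Mrpl45 was also higher in libraries with more counts outside protein-coding genes (r = 0.73, below). The next higher genes were Mrps26 (0.56), Mrpl2 (0.49), Mrps25 (0.48), Mrps7 (0.44) and Mrpl11 (0.43).

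On the lower side Mrpl22, a large subunit protein whose promoter holds an ETS and an NRF1 motif, read 111, 39.8, 39.8, 29.6 and 25.5 in Het and 11.5, 38.5, 39.2 and 21.1 in Null, with overlap (log2 fold change -0.75, -1.88 to 0.39). Mrpl36, whose E-box and YY1 motifs are shown above, read 61.8, 64.4, 79.7, 102 and 104 in Het and 64.0, 65.2, 47.1 and 28.8 in Null (-0.71, -1.46 to 0.04, exact permutation p = 0.0714). Mrps34 read 46.2, 38.2, 35.8, 35.3 and 59.4 in Het and 21.9, 26.2, 37.5 and 27.7 in Null (-0.58, exact permutation p = 0.0317). Only 1 Null library of Mrps34 reached the Het range, and 73.8% of its 31-base stretches occur in other genes, mostly in Mapk8ip3. Mrpl19 (-0.53), Mrps28 (-0.48) and Mrps24 (-0.43) followed, and all of these had a limma adjusted p of 0.998.

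Library composition differed among the libraries of this table, with overlap between the genotypes. The share of normalized counts outside genes that the GENCODE vM21 annotation lists as protein coding was 9.85, 7.32, 4.41, 3.88 and 9.84% in the 5 Het libraries and 10.3, 4.60, 5.71 and 12.3% in the 4 Null libraries. In the first table it was 2.45 to 3.75% throughout. Processed pseudogenes alone held 2.26 to 9.19% in the second table and 0.858 to 1.46% in the first. The part of this composition in the comparison was examined only as a term in the fit, below.

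Mrpl48, a large subunit gene, followed that share closely. It read 1764, 1027, 463, 344 and 1770 in Het and 2124, 408, 692 and 1976 in Null, with r = 0.99 against the share over the 9 libraries, given as a description since both come from the same scaled counts. Transcripts of Mrpl48 share 16.6% of their 31-base stretches with 2841 other genes, and in the first table it stayed between 440 and 806. Most members went the other way. Of the 78, 64 (82.1%, 38 of the large and 26 of the small subunit) were lower where the share was higher, as against 56.9% of 15783 protein-coding genes tested. The strongest of these were Mrpl49 (r = -0.94) and Mrpl4 (r = -0.91). Besides Mrpl48, the largest positive values were those of Mrps18c (r = 0.90), Mrpl13 (0.75), Mrpl45 (0.73) and Mrpl1 (0.71). Of their 31-base stretches, Mrps18c shares 34.5% and Mrpl45 13.4% with other genes.

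The mean level of all 78 genes, on the log2 scale, was 6.66, 6.66, 6.82, 6.80 and 6.48 in Het and 6.55, 6.95, 6.72 and 6.32 in Null. It was lowest in the Null library with the highest share. With the share as a term in the fit, a choice made after seeing the data, 0 members were called. In that fit 3 had an unadjusted p under 0.05 and the smallest adjusted p was 0.742. The 3 are not set against all genes of that fit here, so no excess can be read from them.

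**Figure D5:**
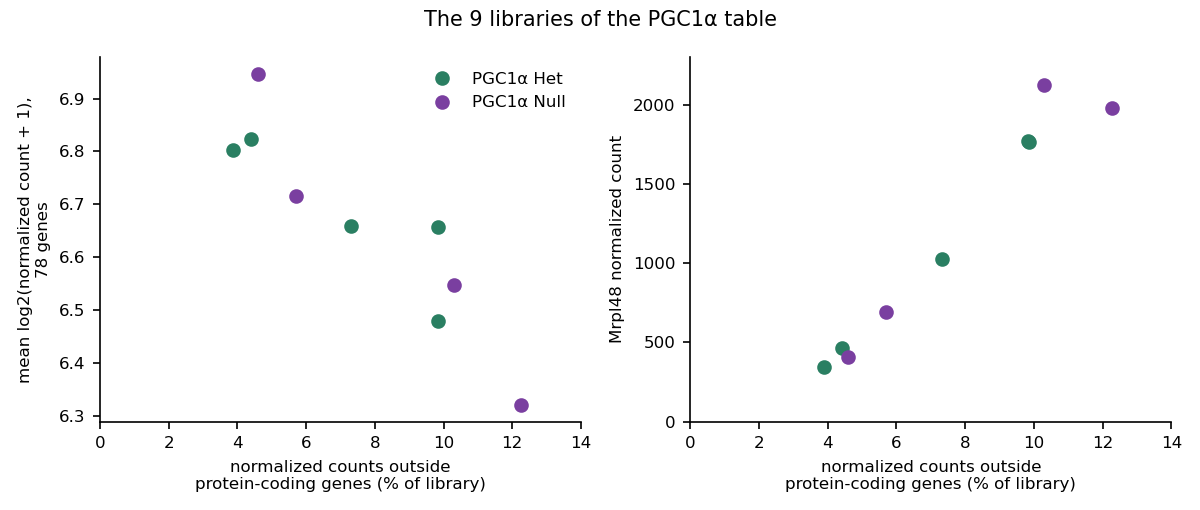
Mean log2(normalized count + 1) of the 78 genes and normalized count of Mrpl48 against the percent of normalized counts outside protein-coding genes, in the 9 libraries of the second table, with Het and Null marked. Mrpl48 runs from 344 to 2124 along the share in both genotypes, and the mean level of all members runs from 6.32 to 6.95.

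Genes fixed for their role likewise held no call in the pooled PI3Kα and the PGC1α comparisons. Mrpl3, near the peptidyl transferase centre, had log2 fold changes of -0.37 (-0.95 to 0.21) with PI3Kα activation and 0.02 (-0.66 to 0.70) in PGC1α Null. For the stalk proteins the values were -0.00 (-0.41 to 0.40) and -0.07 (-0.60 to 0.46) for Mrpl10, and -0.46 (-1.50 to 0.59) and 0.22 (-0.54 to 0.98) for Mrpl12. Mrpl10 was the more closely bounded of the pair in both tables.

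The mitochondrial ribosome uses 3 paralogs related to bacterial S18, of which Mrps18a sits in the large subunit and Mrps18b and Mrps18c in the small. With PI3Kα activation their log2 fold changes were -0.07 (-0.65 to 0.52), -0.30 (-1.18 to 0.59) and -0.01 (-0.59 to 0.56). In PGC1α Null they were -0.22 (-0.88 to 0.44), 0.08 (-0.92 to 1.08) and 0.40 (-0.19 to 0.99). No paralog passed the test in either table. In the second table Mrps18c was higher where more counts lay outside protein-coding genes (r = 0.90, above). Mrps30, which also sits in the large subunit by structure, stood at -0.08 (-0.50 to 0.33) and 0.27 (-0.63 to 1.16), and Mrps15 at -0.03 (-0.85 to 0.79) and -0.41 (-1.34 to 0.51). No direction can be read from several of these values. With PI3Kα activation those of Mrpl10, Mrps15, Mrps18a, Mrps18c and Mrps30 and in PGC1α Null those of Mrpl3, Mrpl10, Mrps18b and Mrps30 changed sign under 1 or more of the alternative fits.

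Genes around the mitochondrial ribosome were taken by list and likewise held 0 called genes in all 3 comparisons (PI3Kα pooled, 6 against 2 weeks, PGC1α Null against Het). Of all genes, 0.0228, 0.0513 and 0% were called in the same comparisons. Proteins of the ribosome with other names, 6 genes including Dap3 and Ptcd3, had medians of 0.02, 0.08 and -0.11, with Ptcd3 the highest and Dap3 the lowest of the pooled PI3Kα comparison (0.43 and -0.19). The 13 mitochondrial translation factors had medians of 0.30 (10 of 13 higher), 0.10 and -0.08, from Taco1 (0.63) to Mtif3 (-0.17) in the pooled comparison. Assembly and rRNA-modifying factors, 32 genes of which 30 were tested in the second table, had medians of 0.17, -0.25 and -0.15, and ran from the pseudouridine synthase Rpusd3 (1.65) to Rcc1l (-0.38). The 20 genes for mitochondrial tRNA charging had medians of 0.01, 0.19 and -0.13.

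Upstream of these, the 7 genes for mitochondrial transcription had medians of -0.08, 0.20 and -0.29, from Polrmt, the RNA polymerase (1.37), to Tfam (-0.33) with PI3Kα activation. The 10 biogenesis regulators had medians of -0.08, 0.31 and -0.04, and Ppargc1a was the lowest of them with PI3Kα activation and in PGC1α Null. The 76 nuclear oxidative phosphorylation genes had medians of -0.12 (28 higher), 0.13 (48 higher) and -0.03 (32 higher), close to those of the large subunit genes. The 13 mRNAs of the mitochondrial genome had medians of -0.46 (0 higher), -0.33 (2 higher) and 0.19 (12 higher). These mRNAs held 11.5% of the normalized counts in the single BRAFV600E library at 2 weeks and 2.95 to 6.80% in the other 13 libraries of that table, and without that library the first median was -0.23 (0 higher) and the second turned to 0.30 (10 of 13 higher). The 76 cytosolic ribosomal protein genes had medians of -0.27 (7 higher), 0.20 (63 higher) and -0.01 (37 higher). These lists differ in how far their genes move together (above), so a count on one side is not a count of independent genes.

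Reads could not be split with certainty between all members and other genes. In GENCODE vM21, 16 of the 78 genes share no 31-base stretch with another gene, 29 share over 10% of theirs and 3 over 50%, namely Mrpl53 (84.4%, with Gm42688), Mrps34 (73.8%) and Mrps25 (68.9%).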

How the data were processed

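RNA-sequencing libraries from sorted tdTomato+ mouse lung tumor cells were prepared with the Nugen Ovation Ultralow V2 kit and sequenced as single-end reads. Abundance estimates were made by the authors with Salmon, and gene counts were scaled with DESeq2 on the Galaxy server, once for the 14 BRAFV600E and BRAFV600E/PI3KαH1047R libraries and once for the 9 PGC1α libraries. FastQC and the build GRCm38 are named in the submitters' processing notes, and versions are not given in the sources used here. The deposited values are a signal per gene (normalized counts, not whole reads), so no count model was run, read depth is unknown, no interval for counting error is given, and each table was tested alone. The deposited tables of the authors' own comparisons (mean level, log2 fold changes, standard errors, Wald statistics and p-values) were not used. All columns of the 2 count tables were mapped to a sample by name (0 left over).

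Genes whose normalized count averaged 10 or more over a table were tested on log2(value + 1) with limma 3.58.1 in R 4.3.3 (trend, moderated variance, two-sided), with Benjamini-Hochberg adjustment over all genes of the table and a threshold of 0.05. A fold change on this scale understates that of low genes. The contrasts were genotype with weeks pooled, genotype at each week and its change between weeks (cell means), week with genotype as a term, and PGC1α Null against Het. Single named genes were also tested by exact permutation over libraries (Python 3.11.15). The test was checked on simulated data. The labels give separate samples, and where they do not state separate mice the p-values measure the spread between these samples. Genes named were the 3 highest and 3 lowest fold changes of each subunit in the pooled PI3Kα, 6 against 2 weeks and PGC1α comparisons, any member called, and 14 genes fixed for their role. The members and lists were chosen with earlier results of these data known. Shared sequence was counted as 31-base stretches in GENCODE vM21 transcripts. Alternatives covered the pseudocount, the filter on low values, scaling, each library left out, the replicate number, sex, week and subunit assignment.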

Additional observations from a re-analysis of the deposited data

Results flagged for a closer look

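In groups of 4 or 5 libraries, 129 sets of values were tested (43 items, named genes among them, by group). In 8 sets 1 library stood apart by Dixon's ratio at its 95% critical value, where chance alone would give about 6.5 (1 in 20). All 8 were sets of a named gene. In BRAFV600E/PGC1αNull, Mrps6 was lowest in replicate 4 at 2.39 on the log2(normalized count + 1) scale (others 5.49 to 6.10), and Mrps12 was lowest in the same library at 4.52 (others 5.63 to 5.77). Mrps18b was lowest in Null replicate 1 at 4.66 (others 6.70 to 7.10). In BRAFV600E/PGC1αHet, Mrps27 was lowest in replicate 1 at 3.62 (others 5.37 to 5.73) and Mrps5 was highest in replicate 3 at 7.96 (others 7.27 to 7.46). In BRAFV600E/PI3KαH1047R at 6 weeks, replicate 1 was the highest for Mrps18c at 6.93 (others 6.20 to 6.32) and for Mrps33 at 8.57 (others 7.68 to 7.78), and the lowest for Ppargc1a at 6.88 (others 8.07 to 8.24). The same library had the lowest summed level of AT2 markers in its group (335069, others 670249 to 920267) and the highest of endothelial markers (94955, others 18396 to 25539), and the part of these in the values was not tested.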

How the results depend on the processing

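No member was called in any of the 201 alternative fits, each being 1 comparison under 1 setting (limma, adjusted p under 0.05). The medians of the large or small subunit genes, taken once per comparison and setting, gave 420 values. Of these 14 moved by more than 1 SD of the libraries' levels, and they fall on several comparisons, given below. Counted once over all settings, 14 of 80 log2 fold changes of named members changed sign in 1 or more fits, none of them past the threshold. For genotype with weeks pooled, Mrpl38 turned to 0.088 with sex as a term. Without 2 weeks Mrpl38 turned to 0.017, Mrps6 to -0.22, Mrpl10 to 0.0040 and Mrps18a to 0.013. With scaling to equal totals Mrpl10 turned to 0.042, Mrps15 to 0.013 and Mrps18c to 0.031. With the replicate block Mrpl10 turned to 0.041, Mrps18a to 0.0083 and Mrps18c to 0.042. With the share of counts outside protein-coding genes as a term (added after seeing the data) Mrpl10 turned to 0.067 and Mrps30 to 0.045, and without both BRAFV600E/PI3KαH1047R libraries at 12 weeks Mrps18c turned to 0.15. Leaving out 1 library in turn gave Mrpl10 -0.067 to 0.096, Mrps15 -0.22 to 0.15, Mrps18a -0.17 to 0.036 and Mrps18c -0.11 to 0.14, and gave Mrps27 at 6 weeks -0.74 to 0.028. In PGC1α Null, Mrpl3 turned to -0.041 with scaling to equal totals, -0.010 with quantile normalization, -0.14 with the replicate block and -0.039 with sex as a term, Mrps18b to -0.035 with quantile normalization and -0.054 with the replicate block, and Mrps30 to -0.043 with the replicate block. Leaving out 1 library in turn gave Mrpl10 -0.17 to 0.013, Mrpl3 -0.14 to 0.17, Mrps18b -0.18 to 0.64 and Mrps30 -0.043 to 0.52. The sex term used the labels as given, also for the 12-week pair that goes against them. From 2 to 6 weeks, leaving out 1 library in turn gave Mrps12 -0.18 (without the BRAFV600E library at 2 weeks) to 1.86, and gave Mrps23 -2.20 to 0.067 (without BRAFV600E/PI3KαH1047R replicate 1 at 2 weeks). With sex as a term the large subunit median of the 2-week genotype difference was 0.30 and the small subunit median of its change from 2 to 6 weeks was -0.52. With Mrps18a and Mrps30 counted in the large subunit, the small subunit median of the change from 6 to 12 weeks was -0.15. Leaving out 1 library in turn gave ranges of 0.062 to 0.26 (large, genotype at 2 weeks), -0.24 to 0.025 (large, at 6 weeks), -0.14 to 0.015 (small, at 6 weeks), 0.019 to 0.25 (large, from 2 to 6 weeks), -0.15 to 0.025 and -0.18 to 0.051 (large and small, PGC1α Null), -0.24 to 0.15 (small, at 12 weeks), -0.38 to 0.0082 (large, change from 2 to 6 weeks), 0.037 to 0.28 (large, change from 6 to 12 weeks) and -0.17 to 0.18 (small, change from 6 to 12 weeks). The cause of these moves was not tested.

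Replicate numbers did not pair the libraries (correlations of same-numbered deviations between -0.47 and 0.21), and the fit with the replicate number as a block called 0 members, with 1, 10, 0 and 1 members at an unadjusted p under 0.05 for genotype pooled and at 2, 6 and 12 weeks. With the block, 6.68% of all genes had an unadjusted p under 0.05 for genotype pooled. The counts by week are not set against all genes here. Numbers crossed at 12 weeks, added after seeing the data, gave 2 members with an unadjusted p under 0.05 and 0 calls. Without the BRAFV600E/PI3KαH1047R pair at 12 weeks, whose sex labels go against Eif2s3y, the pooled comparison had 0 calls and a smallest adjusted p of 0.458. Counts of calls over all genes, none of them members, moved further. They ran up to 9 for genotype pooled (4 as reported), from 0 to 268 at 2 weeks (3), from 0 to 12 at 6 weeks (4), up to 16 at 12 weeks (2), from 0 to 102 from 2 to 6 weeks (9) and up to 44 for the change from 2 to 6 weeks (0). The 268 came without BRAFV600E/PI3KαH1047R replicate 1 at 6 weeks and the 102 without the BRAFV600E library at 2 weeks. With scaling to equal totals the median of all genes was 0.12 from 2 to 6 weeks (0.02 as reported) and 0.10 for genotype at 12 weeks (0.01). Leaving out the only BRAFV600E library at 2 weeks left no genotype comparison there. A mean over 40 kept 71 and 72 members. Depth in reads is unknown, so precision rests on the number of libraries.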
